A study of Mus musculus with 6 samples.

Results

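Arterial endothelial cells line the vessels that bring blood into a tissue, and cells carrying their transcripts were sought in the genioglossus, the tongue muscle that pulls the tongue forward and helps to keep the upper airway open. The choice was made on raw counts of unique molecular identifiers (UMIs, each standing for 1 captured transcript) in barcodes with at least 300 detected genes. A barcode was taken if the general endothelial genes Pecam1, Cdh5 and Flt1 summed to at least 2 UMIs and the arterial genes Sema3g, Hey1, Stmn2, Alpl and Nebl summed to at least 3. The venous genes Selp, Cytl1 and Sele could sum to at most 1 UMI, as could the mural genes Kcnj8, Abcc9 and Myh11, and Ptprc and Pdgfra, which mark leukocytes and fibroblasts, had to be at 0. The rule found 4026 cells among 25472 endothelial barcodes (15.8%) and among 56309 barcodes in all (7.15%). Because it rests on 5 genes, these cells are called arterial-gene cells here.

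The cells came from male mice of 2 groups sampled at week 4. In 1 group obstructive sleep apnea (OSA), repeated closing of the airway during sleep, had been modelled, and the other group served as control. There were 3 libraries in each group, made on the 10x Genomics droplet platform and all labelled batch 1, and the count matrices read were those of OSA replicates 1, 2 and 3 and control replicate 2. The matrices of the other control replicates were not analysed here. How OSA was modelled, and whether a library stands for 1 animal, is not in the labels, so each p-value is set against the spread between libraries only. The labels name the cells only as skeletal muscle cells.

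The OSA libraries gave 1417, 945 and 707 arterial-gene cells and the control library gave 957. Their summed counts were 7057914, 5255640 and 3823434 UMIs in OSA and 5151388 UMIs in the control, with medians of 4273, 4673 and 4685 UMIs per cell in OSA and 4603 in the control. The whole matrices held 70217449 to 82184913 UMIs. Scrublet, a doublet caller, marked 2.65% to 4.67% of the arterial-gene cells, and these were kept. Any 2 of the 6 libraries shared 41 to 67 barcodes, at most 0.468% of the smaller one, and pairs of the 4 matrices shared 0 or 1 arterial-gene cell.

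Arteries, capillaries and veins share a lining of endothelium that differs along the vessel. Arterial endothelium is known for signalling through Notch receptors and their ligands, for connexins that couple it to itself and to smooth muscle, and for the release of the vasoconstrictor endothelin and the vasodilator nitric oxide. Capillary endothelium of muscle takes up lipid with the help of Gpihbp1, Cd36 and Fabp4, and venous endothelium carries the adhesion molecules through which leukocytes leave the blood. Comparison cells were drawn under the same endothelial, mural and leukocyte limits. Capillary-gene cells had at least 3 UMIs of Gpihbp1, Rgcc and Car4 and numbered 16617, and venous-gene cells had at least 3 UMIs of Selp, Cytl1 and Sele and numbered 177. Both had at most 1 UMI of the 5 arterial genes and at most 1 of the lymphatic genes Prox1 and Mmrn1.

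Stmn2 was the largest single contributor to the selection. This gene encodes a stathmin, a regulator of microtubules best known from neurons, and it had a UMI in 86.8%, 90.2% and 87.8% of the selected cells in OSA and 89.2% in the control. It held 46.9%, 52.3% and 54.4% of the 5 genes' UMIs in OSA and 50.4% in the control. With Stmn2 left out, 49.3%, 43.1% and 42.6% of the OSA cells and 46.8% of the control cells would still have reached 3 UMIs. Stmn2 was the only selecting gene seen in 16.9%, 20.1% and 20.7% of the OSA cells and 19.2% of the control cells. The other selecting genes were seen in fewer cells than Stmn2. Sema3g, a secreted semaphorin gene, was seen in 42.8%, 41.2% and 36.6% of OSA cells and 41.8% of control cells. Hey1, a transcription factor gene switched on by Notch, was seen in 45.0%, 40.0% and 49.6% of OSA cells and 32.4% of control cells. Alpl, which encodes tissue-nonspecific alkaline phosphatase, was seen in 47.6%, 44.3% and 39.7% of OSA cells and 58.9% of control cells, and Nebl, which encodes the actin-binding protein nebulette, in 28.9%, 22.1% and 17.1% of OSA cells and 21.4% of control cells. The control share lay below every OSA share for Hey1 and above every one for Alpl, and inside the OSA range for the other selecting genes. These genes chose the cells, so their values are given without a test. For comparison, a Stmn2 UMI was found in 11.6% to 14.6% of capillary-gene cells, whose rule capped it, at median depths of 2646 to 3376.5 UMIs, and in 9.17% to 17.9% of non-endothelial barcodes, where the rule did not.

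The sum of the selecting genes was low in many of the chosen cells. Its median was 5, 5 and 4 UMIs in the OSA libraries and 4 in the control, and its maximum was 35, 40 and 41 in OSA and 32 in the control. At the limit itself, 1235 endothelial barcodes had a sum of 3 and were just inside, and 2225 had a sum of 2 and were just outside. Genes outside the rule were followed along the sum. Levels are given in CPM, a gene's UMIs in a class of cells of 1 library scaled to a total of 1000000 UMIs for that class and library. Gja5, which encodes connexin 40, a gap junction protein of arterial endothelium, was at 0 to 0.431 CPM over the libraries at a sum of 0, at 0 to 2.91 CPM at a sum of 3 and at 10.9 to 25.2 CPM at sums of 10 or more. Edn1, which encodes endothelin, was at 36.2 to 74.0 CPM at a sum of 0, 91.1 to 150 CPM at a sum of 2, 95.5 to 164 CPM at a sum of 3 and 378 to 625 CPM at 10 or more. Fbln5, an elastic fibre gene, was no higher just inside the limit (17.9 to 27.2 CPM) than at a sum of 0 (22.1 to 30.3 CPM), and reached 106 to 190 CPM at 10 or more. The ranges at sums of 2 and 3 overlapped for Edn1, while the ranges at 10 or more were clear of those at 3 for all of these genes. Lymphatic genes rose too. Lyve1 was at 25.6 to 57.6 CPM at a sum of 0 and at 212 to 413 CPM at 10 or more. Prox1 was at 14.5 to 19.1 CPM and at 31.8 to 59.7 CPM. Median depth also differed, at 2574 to 3222 UMIs at a sum of 0 and 5921.5 to 6631 UMIs at 10 or more.

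**Figure D1:**
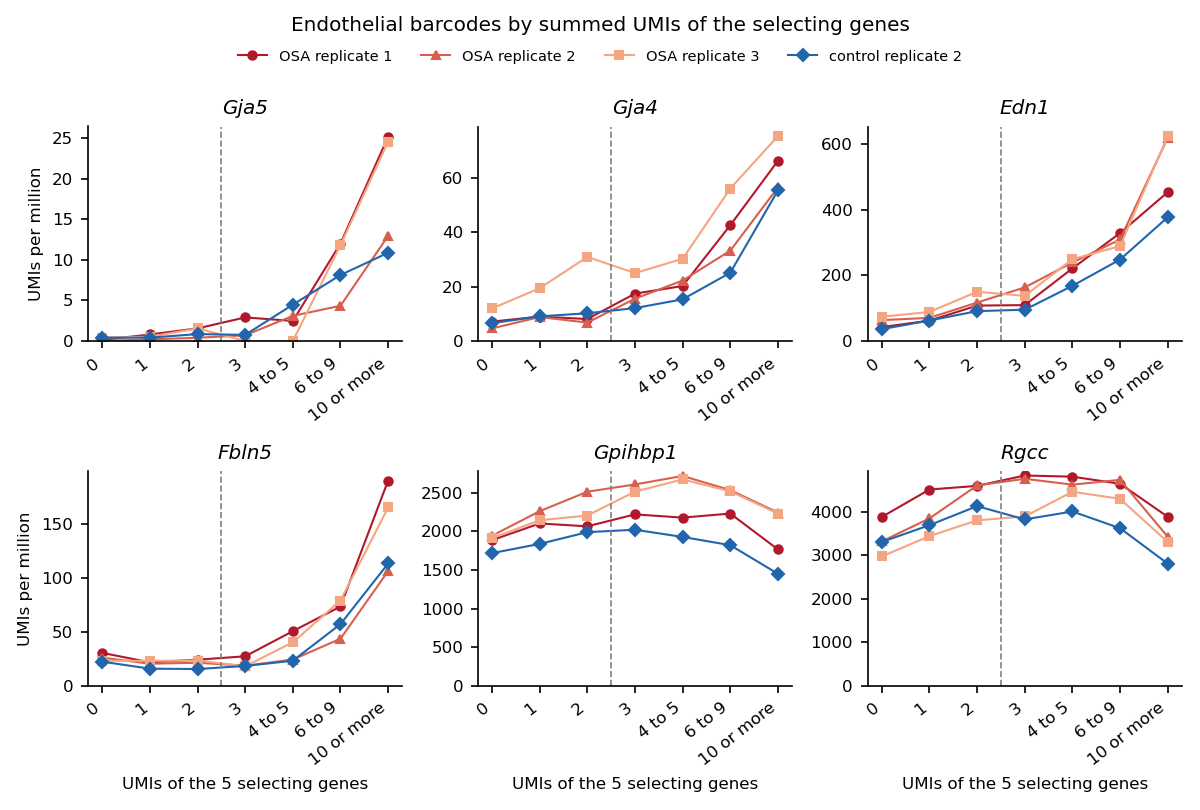
Levels of 6 genes in endothelial barcodes grouped by the summed UMIs of Sema3g, Hey1, Stmn2, Alpl and Nebl (x axis), in CPM (y axis, from 0), with 1 line for each library. The dashed line is the limit of 3 UMIs, and Gja5, Gja4, Edn1 and Fbln5 reach their highest levels at 10 or more, where Gja5 is at 10.9 to 25.2.

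The name arterial was borne out in part. The 13 arterial marker genes that the rule did not count summed to 3503, 3467 and 3228 CPM in arterial-gene cells of the OSA libraries and 3618 CPM in those of the control, against 2479 to 3277 CPM in capillary-gene cells and 4619 to 7847 CPM in venous-gene cells, where Mgp alone gave 3496 to 6799 CPM. Within each library the sum was higher in arterial-gene cells. Capillary-gene cells were at 2818, 3277 and 2479 CPM in OSA and 2651 CPM in the control. Across libraries the ranges of the arterial-gene and capillary-gene cells overlapped, and none of the 13 genes was at 0 in every library. The 9 capillary markers summed to 25445, 25268 and 22309 CPM in OSA and 22510 CPM in the control, against 25779, 24181 and 22918 CPM in OSA capillary-gene cells and 25064 CPM in the control ones, so the ranges overlapped. Single markers differed in direction. Aqp1, a water channel gene of capillaries, was at 2063, 2870 and 2814 CPM in OSA and 2025 CPM in the control, against 3923 to 4817 CPM in capillary-gene cells, lower in every library (log2 difference -0.82 ± 0.05, edgeR adjusted p = 7.21e-07). Gpihbp1, which holds lipoprotein lipase on the capillary wall, was at 2127, 2565 and 2522 CPM in OSA and 1839 CPM in the control, against 2168, 2320 and 2382 CPM in OSA capillary-gene cells and 2040 CPM in the control ones. Rgcc, a cell cycle regulator gene abundant in capillaries, was at 4606, 4496 and 4079 CPM in OSA and 3645 CPM in the control, against 3763 to 4528 CPM in capillary-gene cells. At sums of 10 or more Gpihbp1 was still at 1451 to 2245 CPM and Rgcc at 2807 to 3885 CPM. The cells therefore carried arterial and capillary transcripts together, and the 10 venous markers, of which the rule capped 3, were low at 288 to 384 CPM, against 4213 to 5569 CPM in venous-gene cells.

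Markers of other cell types were uneven among the libraries. The 7 lymphatic markers, which the rule did not limit, summed to 1133, 848 and 2944 CPM in OSA and 1607 CPM in the control, against 120 to 178 CPM in capillary-gene cells. The 4 haemoglobin genes summed to 4661, 2821 and 4630 CPM in OSA and 1774 CPM in the control. The 8 leukocyte markers summed to 166, 229 and 660 CPM in OSA and 66.0 CPM in the control, and the 4 neutrophil markers to 51.3, 633 and 34.8 CPM in OSA and 4.46 CPM in the control. All 3 OSA libraries were above the control for haemoglobin, leukocyte and neutrophil transcripts, and for the 8 fibroblast markers (947, 1020 and 1920 CPM in OSA and 678 CPM in the control). OSA replicate 3 was the highest for lymphatic, leukocyte and fibroblast markers and OSA replicate 2 for neutrophil markers. The 7 smooth muscle markers, some of which the rule capped, were at 426 to 489 CPM, against 2515 to 4926 CPM in non-endothelial barcodes.

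Clustering of the arterial-gene cells alone (Leiden, resolution 0.8) gave 10 groups, numbered c0 to c9, and the genes that define them are descriptions without a test. Cluster c2, with 84 cells or 2.09% of the total, was the cluster with the highest median sum of the selecting genes, 12 UMIs. It held 36, 17 and 13 OSA cells and 18 control cells and was led by Clu, Tox2, Chrm3 and Nebl. Gja5 was at 44.5, 30.1 and 92.5 CPM in the OSA cells of c2 and 10.1 CPM in its control cells, which is 9, 3 and 6 UMIs in OSA and 1 UMI in the control, and Gja4, which encodes connexin 37, at 98.9, 191 and 108 CPM in OSA and 111 CPM in the control. Gpihbp1 was at 386, 382 and 709.5 CPM in OSA and 222 CPM in the control there. The Gpihbp1 levels lay below those of all arterial-gene cells in every library and the Gja4 levels above them, while the Gja5 counts are too few to order the control. Cluster c0 (1041 cells, 25.9%) was led by Dipk2b, with the neutrophil genes S100a9 and Retnlg and the endothelial gene Btnl9 among its leading genes, c1 (559 cells, 13.9%) by the capillary genes Car4, Lpl, Aqp1 and Rgcc, and c4 (769 cells, 19.1%) by Kirrel3, Hdac9, Aqp1 and Fmo2. Cluster c3 (986 cells, 24.5%) had Sema4a, the heat shock gene Hspa1a, the interferon-induced gene Oasl1 and Edn1 among its leading genes.

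In 5 clusters most of another cell type's markers were raised more than 2-fold over the other arterial-gene cells. Cluster c5 (154 cells) carried lymphatic genes, led by Ccl21a, the chemokine that guides cells into lymphatics, and Lyve1, a hyaluronan receptor gene of lymphatic endothelium. Its Prox1 level, the factor that sets lymphatic identity, was 359 CPM and its Stmn2 level 638 CPM, above the 550 to 574 CPM of all arterial-gene cells of a library. Cluster c6 (140 cells) carried pericyte genes, c7 (71 cells, 63.4% of them called doublets) Schwann cell genes, c8 (134 cells, 42.5% called doublets) fibroblast, leukocyte and satellite cell genes beside the epithelial keratin genes Krt13 and Krt4, and c9 (88 cells) haemoglobin genes. Together they held 587 cells, 14.6% of the total, with 13.6%, 12.9% and 21.5% of the cells in OSA and 12.5% in the control. OSA replicate 3 stood apart with 9.05% of its cells in the lymphatic cluster, against 2.89% and 2.12% in the other OSA libraries and 3.03% in the control. Cluster c6 also kept arterial transcripts, with 0% called doublets. The 13 arterial markers outside the rule summed to 4125 CPM in c6, against 3453 CPM in the other arterial-gene cells. Values without these 5 clusters, which leave out c6 as well, are given beside several results below. The clusters were left out of arterial-gene cells only, and the comparison cells were kept whole.

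**Figure D2:**
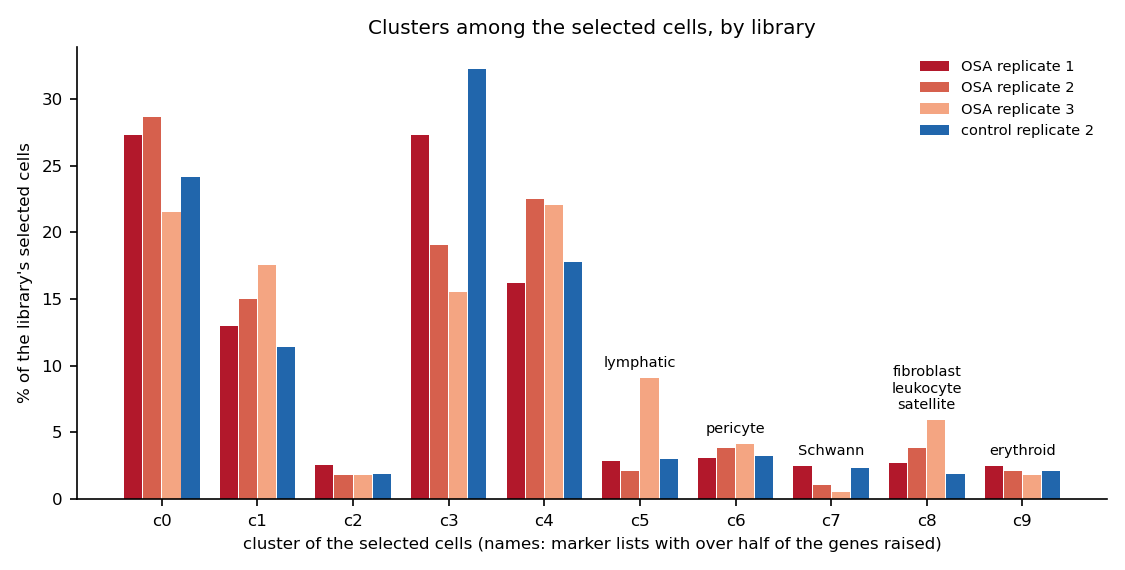
Share of each library's arterial-gene cells (y axis, percent, from 0) in clusters c0 to c9 (x axis), with 1 bar for each library and the name of any other cell type with most of its markers raised. OSA replicate 3 has 9.05% of its cells in the lymphatic cluster c5.

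The share of arterial-gene cells in the endothelium differed between the groups by less than its spread among OSA libraries. They were 17.1% (exact binomial 95% interval 16.2 to 17.9), 17.0% (16.0 to 18.0) and 13.6% (12.7 to 14.6) of endothelial barcodes in the OSA libraries and 14.9% (14.0 to 15.8) in the control. OSA averaged 15.9% ± 1.95 (SD, n = 3), and the control lay inside the OSA range. The difference was 0.984 percentage points (two-sided exact permutation test over libraries, p = 1), and 1 library against 3 cannot reach a p below 0.25. With every barcode thinned to 2000 UMIs, which left out 1989 to 3158 barcodes per library, the shares were 10.9%, 8.80% and 8.56% in OSA and 8.78% in the control. Of all barcodes they took 9.02%, 7.51% and 4.94% in OSA and 6.99% in the control (difference 0.169 percentage points, exact permutation p = 1). That difference was -0.762 points without OSA replicate 1, -0.0074 without OSA replicate 2 and 1.28 without OSA replicate 3. The intervals cover counting error only.

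The next question was which genes outside the rules set arterial-gene cells apart from capillary-gene cells of the same libraries. Gja5, Gja4, Edn1, Sox17 and the elastic fibre gene Fbln5 were higher in arterial-gene cells, as were 19 of 24 interferon-stimulated genes, and 18 of 31 matrix genes were lower. In edgeR's quasi-likelihood test, with library as a block and a Benjamini-Hochberg threshold of 0.05, 1553 of 14520 genes tested were higher (10.7%) and 1712 were lower (11.8%), 22.5% in all. The cells of both classes were chosen by transcripts, so genes that vary with the selecting genes differ partly by that choice, and the median depth of capillary-gene cells was lower (2646 to 3376.5 UMIs).

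Gja5, Bmx and Gja4 had the largest differences among the arterial genes. Gja5 was at 9.07, 4.38 and 6.80 CPM in arterial-gene cells of OSA and 5.63 CPM in those of the control, against 0.257, 0.0684 and 0.559 CPM in capillary-gene cells of OSA and 0.422 CPM in those of the control. Gja4 was at 33.3, 28.9 and 42.4 CPM in OSA and 24.3 CPM in the control, against 4.18 to 6.38 CPM in capillary-gene cells. Neither pair of ranges overlapped, and the log2 differences were 4.38 ± 0.34 (SE, adjusted p = 4.41e-08) for Gja5 and 2.66 ± 0.11 (adjusted p = 3.08e-11) for Gja4. Bmx, a tyrosine kinase gene of arterial endothelium, was at 7.37, 4.0 and 10.5 CPM in OSA and 7.77 CPM in the control, against 0.492 to 1.03 CPM (log2 difference 3.12 ± 0.29). Without the 5 clusters Bmx was at 4.23, 1.41 and 4.68 CPM in OSA and 4.45 CPM in the control, and its log2 difference was 2.16 ± 0.36. Gja5 and Bmx were thus raised over capillary-gene cells while staying at or below 10.5 CPM.

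Edn1 was at 257, 299 and 283.5 CPM in arterial-gene cells of OSA and 208 CPM in those of the control, against 49.7, 68.2 and 79.4 CPM in capillary-gene cells of OSA and 45.6 CPM in those of the control (log2 difference 2.17 ± 0.10, adjusted p = 1.43e-05). Sox17, a transcription factor gene of arterial specification, was at 377, 324 and 303 CPM in OSA and 254.5 CPM in the control, against 113 to 159 CPM (1.23 ± 0.04). Fbln5 was at 75.0, 40.9 and 62.5 CPM in OSA and 46.8 CPM in the control, against 14.1 to 22.6 CPM (1.64 ± 0.14). Every arterial-gene value of these genes lay above every capillary-gene value. Clu, which encodes the chaperone clusterin (1.75 ± 0.13), Igfbp3, an insulin-like growth factor binding protein gene (1.14 ± 0.05), Unc5b, a netrin receptor gene (0.91 ± 0.07), and Efnb2, which encodes the arterial ephrin ligand (0.64 ± 0.05), were also higher. Of 19 tested genes of the arterial identity list, which leaves out the selecting genes, 15 were higher and 1 was lower. Over all genes tested 10.7% were higher and 11.8% lower. The list's median log2 difference was 0.77 (all genes tested, -0.01). Without the 5 clusters 16 were higher, 1 was lower and the median was 0.92. With all clusters kept, the lower gene was Mecom, a transcription factor gene (-0.27 ± 0.05, and -0.02 without the 5 clusters). Dll4, the Notch ligand gene most often used as an arterial mark, was at 107, 119 and 132 CPM in OSA and 105 CPM in the control, against 108 to 117 CPM in capillary-gene cells. Its groups overlapped, and its log2 difference of 0.08 ± 0.05 did not pass (edgeR adjusted p = 0.242). Without the 5 clusters, left out of arterial-gene cells only, it was 0.28 ± 0.06 and was called.

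**Figure D3:**
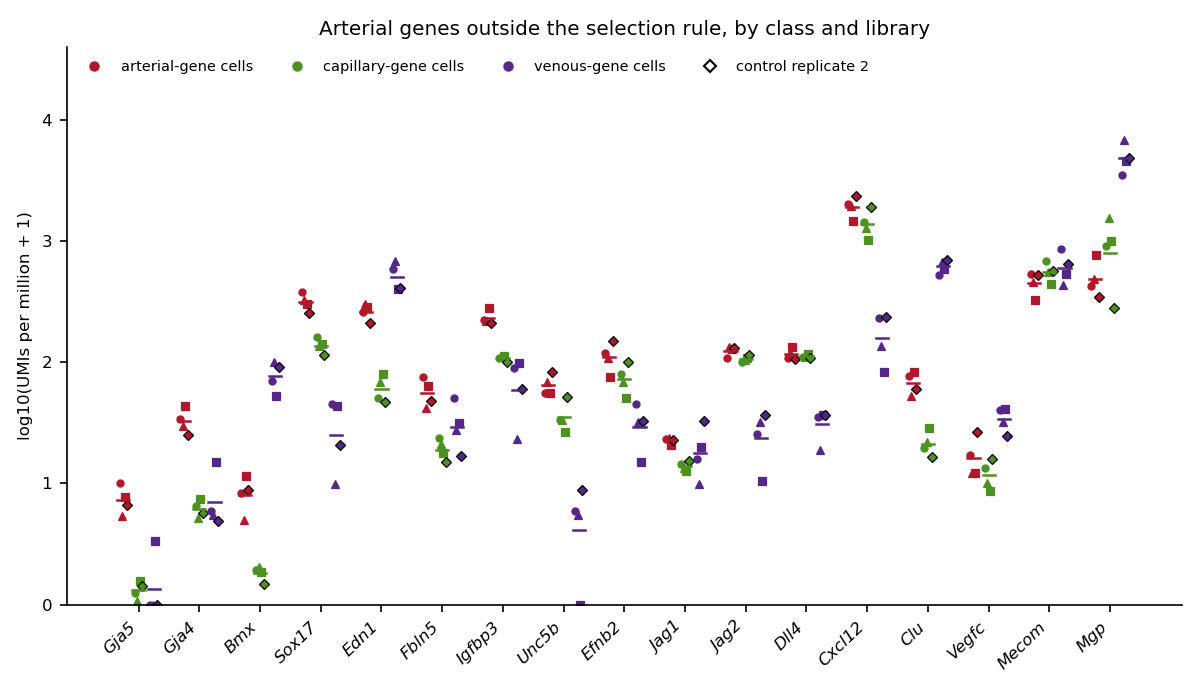
Levels of 17 arterial identity genes outside the rule in arterial-gene, capillary-gene and venous-gene cells, as log10 of CPM plus 1 (y axis), with 1 point for each library, black edges for control replicate 2 and short lines for means. Gja5, Gja4, Sox17 and Fbln5 are higher in every arterial-gene sum than in every capillary-gene sum, Dll4 overlaps between those classes, and Bmx, Edn1, Clu and Mgp are highest in venous-gene cells.

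Notch receptors and ligands showed a mixed pattern. Notch1, a receptor gene, was at 231, 248 and 248 CPM in OSA and 242 CPM in the control, against 150 to 168 CPM in capillary-gene cells (0.63 ± 0.04). The ligand genes Jag1 (0.77 ± 0.10) and Jag2 (0.26 ± 0.05) were higher, as was the mural receptor gene Notch3 (0.49 ± 0.10, and 0.14 ± 0.12, not called, without the 5 clusters). The receptor gene Notch2 (-0.75 ± 0.10, and -1.49 ± 0.13 without the 5 clusters) and Lfng, which encodes a sugar transferase that tunes Notch (-0.49), were lower. That made 4 of 17 listed genes higher and 2 lower (all genes tested, 10.7% and 11.8%). Without the 5 clusters 7 were higher and 4 lower (all genes tested, 14.4% and 16.9%).

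Promoters of arterial genes were searched for the core motif of RBPJ, the DNA-binding partner of Notch, since Notch is the pathway most tied to arterial identity and several of these genes were higher together. The letters TGGGAA, or TTCCCA on the other strand, were looked for in RefSeq windows of 300 bases on GRCm38.p6, a build other than that of the counts. Of 18 selecting and listed genes 14 had a window, and 5 of the 14 held the motif (Nebl, Cxcl12, Fbln5, Sema3g and Bmx). The share over all genes with a window was 28.3%. A selecting gene (Sema3g), a gene higher than in both other classes (Cxcl12) and one higher than in capillary-gene cells only (Bmx) are shown, with the motif in capitals.
Sema3g, chr14:31217623-31217922, plus strand: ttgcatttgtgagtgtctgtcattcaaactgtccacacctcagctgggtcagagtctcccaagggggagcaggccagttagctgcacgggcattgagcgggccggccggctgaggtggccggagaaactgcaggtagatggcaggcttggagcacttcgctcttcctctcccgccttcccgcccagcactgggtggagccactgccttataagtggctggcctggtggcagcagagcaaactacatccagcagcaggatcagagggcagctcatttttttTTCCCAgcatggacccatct
Cxcl12, chr6:117168285-117168584, plus strand: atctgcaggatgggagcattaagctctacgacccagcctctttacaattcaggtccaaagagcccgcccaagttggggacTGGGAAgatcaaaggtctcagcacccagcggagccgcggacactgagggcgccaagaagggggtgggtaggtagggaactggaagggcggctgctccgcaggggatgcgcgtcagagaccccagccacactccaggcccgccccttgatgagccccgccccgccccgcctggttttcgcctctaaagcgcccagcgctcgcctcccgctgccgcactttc
Bmx, chrX:164258144-164258443, minus strand: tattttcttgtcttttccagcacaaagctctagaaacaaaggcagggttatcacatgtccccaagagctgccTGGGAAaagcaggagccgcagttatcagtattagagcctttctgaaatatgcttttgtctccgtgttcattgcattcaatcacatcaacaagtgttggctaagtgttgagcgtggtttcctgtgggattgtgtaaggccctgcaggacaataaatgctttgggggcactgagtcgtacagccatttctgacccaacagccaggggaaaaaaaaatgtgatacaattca

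Ion channel and vasoactive genes followed. Of 15 genes of flow response and ion channels 9 were higher and 0 lower in the edgeR test (all genes tested, 10.7% and 11.8%). Trpv4, a calcium channel gene, was at 31.5, 31.6 and 31.1 CPM in OSA and 21.9 CPM in the control, against 5.20 to 8.28 CPM in capillary-gene cells (2.11 ± 0.11). Kcnn3, a calcium-activated potassium channel gene, was higher by 1.88 ± 0.19, while the shear stress factor genes Klf2 (0.14 ± 0.04) and Klf4 (0.12) differed little. Both channel genes lay above every capillary-gene value in every library. Of 24 vasoactive genes 10 were higher and 6 lower (all genes tested, 10.7% and 11.8%). Ece1, which encodes the enzyme that activates endothelin, was at 264, 271 and 323 CPM in OSA and 294 CPM in the control, against 173 to 189 CPM (0.72 ± 0.05). The bradykinin receptor gene Bdkrb2 (1.60 ± 0.12), the nitric oxide synthase gene Nos3 (0.27 ± 0.05) and the angiotensin-converting enzyme gene Ace (0.36 ± 0.06) were higher, and the prostaglandin synthase gene Ptgs1 was lower (-0.82 ± 0.11).

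Interferon-stimulated genes were higher as a group, 19 of 24 with 0 lower in the edgeR test and a median of 0.33. Over all genes tested 10.7% were higher and 11.8% lower. Isg15, a ubiquitin-like modifier gene, was at 237, 237 and 217 CPM in OSA and 216 CPM in the control, against 124 to 157 CPM in capillary-gene cells (0.73 ± 0.05, adjusted p = 2.11e-08). The factor gene Irf7 was higher by 0.81 ± 0.06. Junction genes went the same way, with 8 of 14 higher and 0 lower. Without the 5 clusters 11 were higher and 1 lower (all genes tested, 14.4% and 16.9%). Cldn5, the tight junction claudin gene, was at 161, 159 and 325 CPM in OSA and 173 CPM in the control, against 36.6 to 57.1 CPM (1.98 ± 0.21, and 1.03 ± 0.06 without the 5 clusters). Its value in OSA replicate 3, the library with most cells in the lymphatic cluster, was the highest. Of 31 matrix genes 7 were higher, among them the elastin gene Eln (0.81 ± 0.05), and 18 lower.

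Among the 12 most raised abundant genes were Scgb3a1, a small secreted protein gene, and Rbp7, a retinol-binding protein gene of endothelium. Scgb3a1 was at 133, 120 and 134 CPM in OSA and 89.7 CPM in the control, against 16.5 to 27.7 CPM in capillary-gene cells (2.42 ± 0.06, adjusted p = 5.5e-14). Rbp7 was at 591, 489 and 518 CPM in OSA and 544.5 CPM in the control, against 157 to 195 CPM (1.67 ± 0.04). Smad6, an inhibitor of bone morphogenetic protein signalling (1.83 ± 0.06), Btnl9 (1.60 ± 0.14), Plscr1 (1.45 ± 0.07) and Chn2 (1.36 ± 0.06) were raised as well. Ccl21a and Maf, 2 more of these 12 genes, rest on the lymphatic cluster. Ccl21a was at 746, 559 and 2276 CPM in OSA and 1175 CPM in the control, against 15.9 to 43.2 CPM, and its log2 difference of 5.63 ± 0.26 was 0.00 ± 0.16 without the 5 clusters, while that of Maf was 1.51 ± 0.20 and then -1.98 ± 0.16.

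The most lowered abundant genes belonged largely to other cell types. Cd74 (-1.94 ± 0.20) and H2-Aa (-1.82 ± 0.13) serve antigen presentation by class II molecules, Ctss (-1.87 ± 0.16) and Lyz2 (-1.66 ± 0.23) are macrophage genes, and Col1a1, which encodes a fibrillar collagen, was at 126, 250 and 424 CPM in OSA and 84.4 CPM in the control, against 513, 869 and 931 CPM in OSA capillary-gene cells and 240 CPM in the control ones (-1.58 ± 0.18, and -2.96 ± 0.07 without the 5 clusters). Of the 12 named lower genes, 10 were higher in non-endothelial barcodes than in arterial-gene and capillary-gene cells in every library. So were 1109 of the 1712 lower genes (64.8%) and 119 of the 1553 higher ones (7.66%). The share over all genes tested is not given, so these shares are descriptions only. Fibroblast markers summed to 1661 to 4049 CPM in capillary-gene cells, against 678 to 1920 CPM in arterial-gene cells. Without the 5 clusters, left out of arterial-gene cells only, they summed to 309 to 708 CPM in the latter. The part of such transcripts in these differences was not tested. Of the calls, 1302 higher (83.8%) and 1467 lower (85.7%) were also called without the 5 clusters, where 4437 of 14162 genes (31.3%) were called in all, 2042 higher (14.4%) and 2395 lower (16.9%).

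The contrast with venous-gene cells rested on 33, 29 and 71 venous-gene cells in OSA and 44 in the control. Of 10742 genes tested in the same way 963 were higher (8.96%) and 988 lower (9.2%), 18.2% in all. Of 14 lipid handling genes 8 were higher in arterial-gene cells and 1 lower, of 16 Notch pathway genes 7 were higher and 3 lower (Notch2, Dll1 and Lfng), and of 21 adhesion and leukocyte entry genes 6 were higher (Icam2, Esam, Jam2, Jam3, Cxcl9 and Podxl) and 5 lower (Vcam1, Icam1, Ackr1, Csf1 and Il6). Plvap, which encodes the diaphragm protein of venous and fenestrated endothelium, was at 19.3, 32.3 and 27.2 CPM in OSA and 20.8 CPM in the control, against 762, 1195 and 1312 CPM in venous-gene cells of OSA and 989 CPM in those of the control (-5.49 ± 0.13, adjusted p = 4.51e-33). Vwf, the von Willebrand factor gene, was at 26.1, 21.5 and 41.3 CPM in OSA and 40.6 CPM in the control, against 1088 to 1311 CPM (-5.37 ± 0.14). Vcam1, an adhesion molecule gene that leukocytes bind, was at 6.09, 14.1 and 7.58 CPM in OSA and 9.51 CPM in the control, against 191 to 416 CPM (-5.13 ± 0.19). None of these ranges overlapped. The venous chemokine-binding gene Ackr1 (-5.95 ± 0.51), the venous factor gene Nr2f2 (-2.17 ± 0.13), Icam1 (-2.37 ± 0.12) and the prostaglandin genes Slco2a1 (-4.60 ± 0.18) and Ptgs1 (-3.40 ± 0.19) were lower as well.

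Many genes higher than in venous-gene cells had few venous counts, so ratios with counting intervals are given. St8sia6, a sialyltransferase gene, had 1143 UMIs in arterial-gene cells and 1 in venous-gene cells, a ratio of 59.2 (95% exact interval 10.6 to 2342) after scaling to totals. Prom1, which encodes the membrane protein prominin, had 1133 and 1 (58.7, 10.5 to 2321), and Aqp7, a glycerol channel gene, 2420 and 3 (41.8, 14.3 to 203). These 3 were also higher than in capillary-gene cells. With ample venous counts, Cxcl12, a chemokine gene of arterial endothelium, was at 2004, 1949 and 1458 CPM in OSA and 2348 CPM in the control, against 82.6 to 236 CPM (3.50 ± 0.14). Sox17 (3.29 ± 0.22), Notch4 (2.54 ± 0.25), Dll4 (1.82 ± 0.24) and Efnb2 (1.87 ± 0.24) were higher too, as was the lipoprotein lipase gene Lpl, at 1822, 1990 and 1946 CPM in OSA and 1014 CPM in the control, against 90.6 to 178 CPM (3.60 ± 0.13).

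Several arterial genes were lower than in venous-gene cells. Of 18 tested genes of the arterial identity list 10 were higher and 6 lower (all genes tested, 8.96% and 9.2%). Bmx, at 51.9 to 98.5 CPM in venous-gene cells, was lower by 3.46 ± 0.33 on the log2 scale, and Clu, at 524 to 693 CPM there, by 3.30 ± 0.15. Edn1 was at 399 to 680 CPM in venous-gene cells (-1.03 ± 0.13), and Mgp, a calcification inhibitor gene, at 3496 to 6799 CPM, against 342 to 769 CPM in arterial-gene cells (-3.39 ± 0.31). Without the 5 clusters the log2 differences were -4.46 for Bmx, -4.40 for Mgp, -3.30 for Nr2f2, -6.08 for Plvap and -5.31 for Slco2a1. Bmx, Edn1 and Clu therefore lay above capillary-gene and below venous-gene cells. Over the 10733 genes tested in both contrasts, 400 were higher than in both classes, 244 lower than in both, 186 higher than capillary and lower than venous, and 128 the reverse.

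The study's own question was what the OSA model did, and in arterial-gene cells no gene passed the test. Of 13858 genes, 0 were called (0.0%) by edgeR's quasi-likelihood test after Benjamini-Hochberg adjustment. At an unadjusted p under 0.05 there were 492 (3.55%), 307 higher (2.22%) and 185 lower (1.33%), and 13 passed in DESeq2 (0.0938%). Leaving out OSA replicate 1, 2 or 3 gave 156, 85 or 77 calls, and leaving out the low-count filter gave 77. Only the OSA libraries gave a spread (2 residual degrees of freedom), which the single control library was taken to share. Most of the 12 abundant genes with the smallest p, chosen after their values were seen, are given as values. Other genes given are from the lists or were called in an alternative fit. In capillary-gene cells, which come from the same libraries, 0 of 16609 genes passed (0.0%) and 696 lay under 0.05 unadjusted (4.19%), 443 higher (2.67%) and 253 lower (1.52%).

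Among the higher values was Cd59a, which encodes a surface inhibitor of the complement attack complex. It was at 168, 169 and 154 CPM in OSA and 85.2 CPM in the control (log2 difference 0.99 ± 0.21, edgeR adjusted p = 0.594). Tmem252, a membrane protein gene, was at 61.6, 59.6 and 69.0 CPM in OSA and 26.6 CPM in the control (1.31 ± 0.24). Fam107a, a stress-inducible actin-bundling protein gene, was at 103, 97.0 and 102 CPM in OSA and 54.9 CPM in the control (0.93 ± 0.21). The OSA libraries lay close together and above the control in each. Lpl was at 1822, 1990 and 1946 CPM in OSA and 1014 CPM in the control (0.98 ± 0.26), and Pnpla2, which encodes the fat-mobilising enzyme adipose triglyceride lipase, at 208, 196 and 236 CPM in OSA and 122.5 CPM in the control (0.86 ± 0.23). DESeq2 called 12 genes higher (0.0866%). They were Cd59a, Tmem252 and Lpl, the haemoglobin genes Hba-a1, Hba-a2 and Hbb-bt, the chemokine genes Ccl3, Ccl4 and Cxcl2, the leukocyte gene Fcer1g, the protease inhibitor gene Slpi and Rpl39. In capillary-gene cells Cd59a was at 147, 144 and 131 CPM in OSA and 85.5 CPM in the control, and Tmem252 at 39.5, 26.5 and 38.9 CPM in OSA and 12.6 CPM in the control.

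Other higher values came with other cell types' transcripts or with 1 ribosomal gene. Hbb-bt, a haemoglobin gene, was at 296, 179 and 288 CPM in OSA and 59.4 CPM in the control (2.15 ± 0.34, and 0.75 ± 0.26 without the 5 clusters, 1 of which is led by haemoglobin genes). Rpl39, a ribosomal protein gene, was at 761, 675 and 392 CPM in OSA and 167 CPM in the control (1.91 ± 0.35), and in capillary-gene cells at 780, 721 and 342 CPM in OSA and 150 CPM in the control. The chemokine gene Cxcl2 was at 60.2, 66.2 and 116 CPM in OSA and 16.1 CPM in the control (2.38 ± 0.56). Il1b, a cytokine gene of myeloid cells, was at 7.08, 7.99 and 12.6 CPM in OSA and 0.194 CPM in the control, and without the 5 clusters it was the 1 gene called (5.13 ± 0.75, adjusted p = 0.00969). The control level of Il1b rests on very few UMIs, so the size of that difference is imprecise. Leukocyte markers in the cells without the 5 clusters were at 158, 212 and 482 CPM in OSA and 65.5 CPM in the control. Their part in the Il1b and Cxcl2 values was not tested.

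Among the lower values was Kdr, the main receptor gene for vascular endothelial growth factor (VEGF), given as a member of the VEGF and angiopoietin list. It was not among the 12 abundant genes with the smallest p. It was at 286, 300 and 227 CPM in OSA and 458 CPM in the control (-0.70 ± 0.20, unadjusted p = 0.00533), and in capillary-gene cells at 303, 265 and 220 CPM in OSA and 508 CPM in the control. Meox2, a homeobox factor gene of endothelium, was at 45.1, 43.0 and 30.6 CPM in OSA and 81.5 CPM in the control (-0.99 ± 0.22), and Pcp4l1, a calmodulin-binding protein gene, at 185, 150 and 161 CPM in OSA and 314 CPM in the control (-0.87 ± 0.20). The control lay above all OSA libraries for each. Lypd2, a small membrane-anchored protein gene, was at 1.42, 0.190 and 0.262 CPM in OSA, which is 10, 1 and 1 UMIs, and at 22.7 CPM, 117 UMIs, in the control (-4.90 ± 0.57, adjusted p = 0.153). Lypd2 was called at an arterial sum of at least 4 (adjusted p = 0.00317), with doublets left out (adjusted p = 0.0442) and by DESeq2, as its 1 lower gene (0.00722%). Without the 5 clusters it was at 0.529, 0.236 and 0.390 CPM in OSA and 0.468 CPM in the control and did not pass the low-count filter, so the control level lay in those clusters. Its capillary-gene levels were 3.50, 3.76 and 2.55 CPM in OSA and 4.36 CPM in the control.

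**Figure D4:**
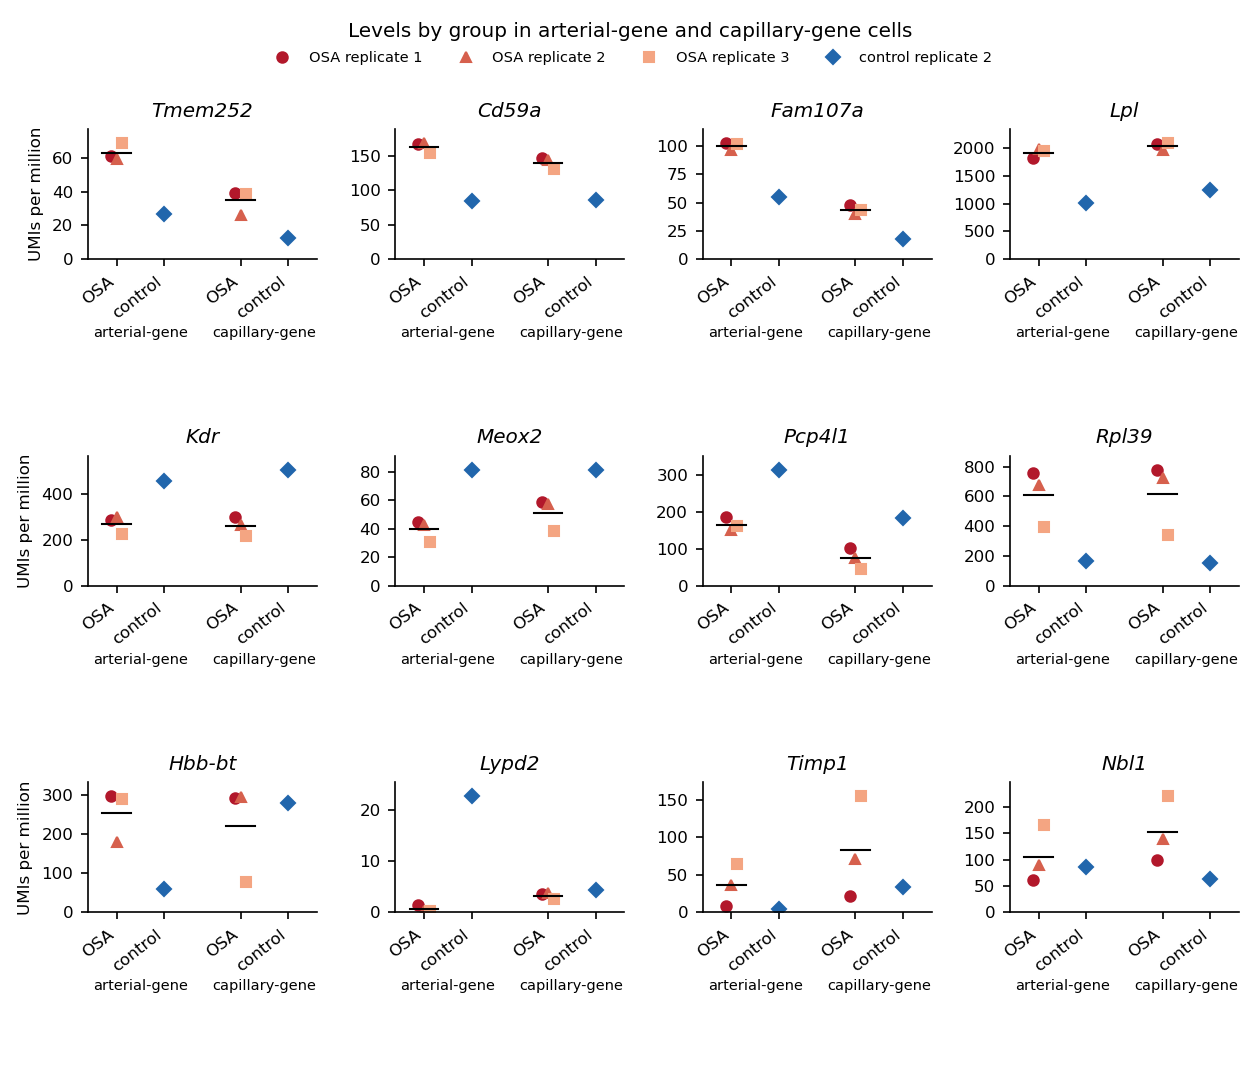
Levels of 12 genes in arterial-gene and capillary-gene cells, in CPM (y axes, from 0), with 1 point for each OSA library, a short line for their mean and a diamond for the control library. In arterial-gene cells Cd59a is at 154 to 169 in OSA and 85.2 in the control, Kdr at 227 to 300 in OSA and 458 in the control, and Lypd2 at up to 1.42 in OSA and 22.7 in the control.

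The listed pathways were counted by how many genes had all 3 OSA libraries on 1 side of the control, which over all genes tested was 21.7% above and 30.2% below. These are descriptions, since no member passed. The VEGF and angiopoietin list had 10 of 14 genes below and 0 above, with a median log2 difference of -0.19 (all genes, 0.02). They were Kdr, the co-receptor genes Nrp1 and Nrp2, the angiopoietin receptor gene Tek, the ligand genes Vegfa, Vegfc, Pgf and Angpt2, Ptprb and Aplnr. Nrp2 was at 145.5, 142 and 109 CPM in OSA and 195 CPM in the control (-0.51 ± 0.20), Vegfc at 16.0, 11.2 and 11.2 CPM in OSA and 25.6 CPM in the control (-0.93 ± 0.28), and Nrp1 at 618, 649 and 474 CPM in OSA and 676 CPM in the control (-0.17 ± 0.23). Of the 10 genes, Kdr, Vegfc, Nrp2 and Angpt2 (-0.79 ± 0.35) had an unadjusted p under 0.05 and none passed the adjusted threshold. The list was not particular to arterial-gene cells. By sign alone, 10 of 14 genes had a negative log2 difference there and 11 of 15 in capillary-gene cells, where the median was -0.25. In the interaction test described below 0 genes of the list were called.

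The acute phase and complement list had 11 of 16 genes above and 1 below, with a median of 1.31 (1.48 without the 5 clusters). Lrg1, a secreted glycoprotein gene of inflamed vessels, was at 50.4, 93.0 and 229 CPM in OSA and 18.1 CPM in the control (2.85 ± 1.55). Lcn2, an iron-sequestering protein gene also made by neutrophils, was at 76.8, 139 and 258 CPM in OSA and 50.7 CPM in the control (1.71 ± 1.07, and 3.54 ± 3.37 without the 5 clusters), and the complement gene C3 at 42.9, 43.8 and 189 CPM in OSA and 23.9 CPM in the control (2.02 ± 1.70). OSA replicate 3 was the highest in all of these, and none passed. Socs3, a feedback inhibitor gene of cytokine signalling, was at 439, 419.5 and 502 CPM in OSA and 361.5 CPM in the control (0.39 ± 0.23). Leukocyte, neutrophil and fibroblast markers were above the control in all OSA libraries as given before, and their part in this list was not tested. Capillary-gene cells showed the same direction. By sign alone, 15 of 16 genes had a positive log2 difference in both classes, and the capillary-gene median was 1.48. In the interaction test described below 0 genes of the list were called.

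Other lists lay closer to the background than the VEGF and acute phase lists or moved in both directions. Several still exceeded the share over all genes, 21.7% above and 30.2% below. Hypoxia response and glycolysis had 12 of 24 genes above and 5 below, with a median of 0.21. Bnip3, a mitophagy gene induced by hypoxia, was at 274, 265 and 207 CPM in OSA and 170.4 CPM in the control (0.60 ± 0.22), Gapdh was at 601, 681 and 805 CPM in OSA and 548 CPM in the control (0.41 ± 0.26), and Slc2a1, the glucose transporter gene, at 43.9, 44.9 and 46.6 CPM in OSA and 48.7 CPM in the control (-0.06 ± 0.21). The metallothionein genes Mt1 and Mt2, which bind metal and respond to stress hormones, were above the control in all OSA libraries, Mt1 at 1057, 1583 and 1919 CPM in OSA and 735 CPM in the control (1.11 ± 0.37). Matrix genes had 13 of 31 above and 2 below, oxidant and antioxidant genes 12 of 23 above and 2 below, and vasoactive genes 4 of 22 above and 10 below. Nos3 was at 154, 140 and 116 CPM in OSA and 156 CPM in the control (-0.14 ± 0.20). The arterial identity list had 6 of 19 above and 5 below. Edn1 (0.49 ± 0.21), Gja4 (0.58 ± 0.28) and Sox17 (0.45 ± 0.21) had all OSA libraries above the control, Efnb2 (-0.50 ± 0.23) and Vegfc all below, and none passed.

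**Figure D5:**
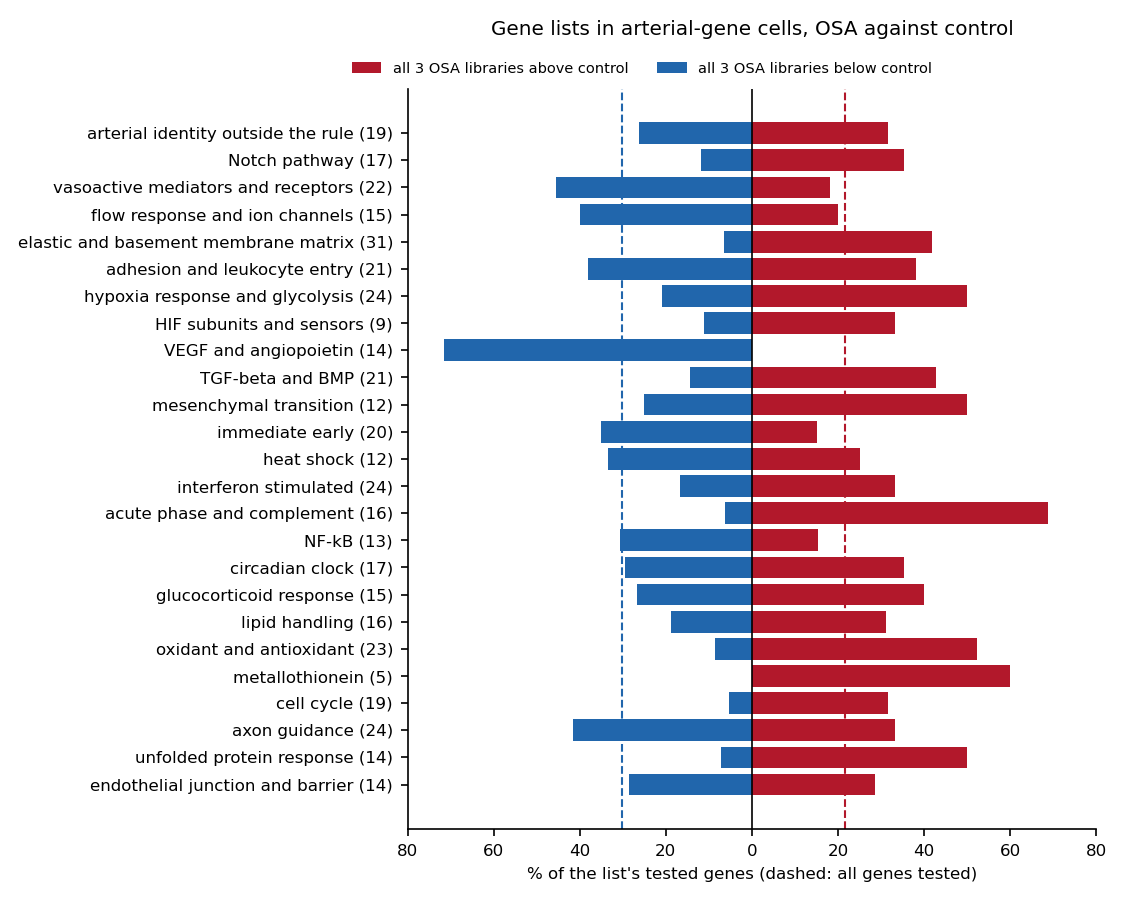
Share of each list's tested genes with all 3 OSA libraries above (right) or below (left) the control in arterial-gene cells (x axis, percent), with the number tested in brackets and the share over all genes as dashed lines. The VEGF and angiopoietin list has 10 of 14 below and the acute phase and complement list 11 of 16 above.

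Whether OSA changed arterial-gene and capillary-gene cells differently was tested as an interaction with library as a block. Of 16282 genes 8 were called (0.0491%), 2 with a higher difference in arterial-gene cells (0.0123%) and 6 with a lower one (0.0369%). Nbl1, which encodes a secreted antagonist of bone morphogenetic proteins, was at 61.5, 88.9 and 166 CPM in arterial-gene cells of OSA and 86.6 CPM in those of the control, and at 98.8, 139 and 220 CPM in capillary-gene cells of OSA and 62.1 CPM in those of the control (log2 difference of differences -1.06 ± 0.12, adjusted p = 0.00213). Its OSA and control values overlapped in arterial-gene cells and did not in capillary-gene cells. Islr (-1.42 ± 0.19), Itih5 (-0.93 ± 0.15) and Tnfaip6 (-0.76 ± 0.13), genes active in fibroblasts, followed the same direction. Timp1, a metalloproteinase inhibitor gene, was at 8.78, 35.8 and 64.9 CPM in OSA and 4.27 CPM in the control in arterial-gene cells, and at 22.0, 71.2 and 155 CPM in OSA and 34.3 CPM in the control in capillary-gene cells (1.82 ± 0.26). Without the 5 clusters 20 of 16027 genes were called (0.125%), 6 higher (0.0374%) and 14 lower (0.0874%), of which 1 was among the 8. The difference of differences was then -0.23 ± 0.16 for Nbl1, -0.33 ± 0.30 for Islr and 1.38 ± 0.42 for Timp1, and none of these was called. Fibroblast markers were at 1661 CPM in control capillary-gene cells and 2836, 3989 and 4049 CPM in OSA ones. All OSA libraries were above the control there, as for Nbl1 and Islr, while Timp1 was below the control in OSA replicate 1. The part of fibroblast transcripts in these differences was not tested.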

How the data were processed

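Single-cell RNA was captured on the 10x Genomics platform. Per the submitters' processing notes and the file headers, the authors ran Cell Ranger 9.0.1 on GRCm39 and deposited filtered matrices of UMI counts. The raw counts of 4 libraries were read for 33696 listed genes, and unmapped sample columns numbered 0. Barcodes with at least 300 genes were kept, and Scrublet (expected rate 0.1) marked doublets. UMIs were summed per library and class, and sums were tested with edgeR 4.0.16 (TMM scaling, filterByExpr, robust quasi-likelihood, Benjamini-Hochberg threshold 0.05) in R 4.3.3, with library as a block between classes. Genes used by the rules entered no test. The code was tested on simulated data. DESeq2 1.42.0 was an alternative. Clusters used scanpy 1.11.5 (10000 UMIs per cell, 2000 variable genes, 30 components, 15 neighbours). Between classes, the 12 called genes with the largest change in each direction at a log2 CPM of at least 5 were named, besides listed genes. The members, gene lists and named genes were chosen with earlier results of these data known. Depth is given per class, and intervals cover counting error only.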

Additional observations from a re-analysis of the deposited data

Results flagged for a closer look

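The OSA difference differed between arterial-gene and capillary-gene cells for 8 genes by edgeR's quasi-likelihood test after Benjamini-Hochberg adjustment. Of these 8, 1 was also called without the 5 clusters and 2 by DESeq2, and the control was 1 library. The log2 difference of differences was -1.06 for Nbl1 (adjusted p = 0.00213), whose values stand above, and 1.82 for Timp1 (adjusted p = 0.00461). It was -1.42 for Islr (adjusted p = 0.00408), which was at 17.4, 15.6 and 32.4 CPM in OSA and 39.0 CPM in the control in arterial-gene cells, and at 41.3, 51.3 and 79.6 CPM in OSA and 38.6 CPM in the control in capillary-gene cells. It was -0.93 for Itih5 (adjusted p = 0.027), with OSA below the control in arterial-gene cells and above it in capillary-gene cells, and -0.76 for Tnfaip6 (adjusted p = 0.036). It was -4.57 for Lypd2 (adjusted p = 0.00408) and 0.14 without the 5 clusters.

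Both remaining genes were scarce. Gm53240 gave 3.25 (adjusted p = 0.00408), at 6.94, 7.80 and 12.3 CPM in OSA and 1.94 CPM in the control in arterial-gene cells, and at 5.82, 6.09 and 6.86 CPM in OSA and 13.4 CPM in the control in capillary-gene cells. 1700008O03Rik gave -6.30 (adjusted p = 0.00461), at 0.283, 0 and 0.262 CPM in OSA and 4.08 CPM in the control in arterial-gene cells.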

How the results depend on the processing

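For OSA in arterial-gene cells, where 0 genes were called, DESeq2 called 13, the fit with no low-count filter 77 (63 higher and 14 lower of 22260), and leaving out 1 OSA library 77 to 156 (156 without OSA replicate 1, 85 without 2, 77 without 3). Leaving out doublets, a sum of at least 4, leaving out cells with lymphatic transcripts, a fit joint with capillary and venous sums, and leaving out the 5 clusters called 1 each, Lypd2 in all but the last (Il1b). RLE scaling, a minimum of 10 counts, no mural UMI and equal totals called 0.

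Against capillary-gene cells, calls were 547 with no library block and 2244 to 2985 when 1 library was left out. Against venous-gene cells they were 1182 with a minimum of 10 counts (3011 tested) and 1514 to 1770 when 1 library was left out. The interaction gave 3 with DESeq2, 5 with a minimum of 10 counts, 20 without the 5 clusters, and 8 to 109 when 1 OSA library was left out (24 without OSA replicate 1, 8 without 2, 109 without 3). The share of all barcodes differed by -0.762 to 1.28 percentage points when 1 OSA library was left out. Signs turned without the 5 clusters for Maf (-1.98), Col4a1 (0.012) and Col4a2 (0.078) against capillary-gene cells and for the Lypd2 interaction (0.14), and for OSA when 1 library was left out in Tie1 (-0.018 to 0.13) and Osmr (-0.020 to 0.20). The causes were not tested.

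Leaving out cells with lymphatic transcripts and leaving out the 5 clusters were chosen after seeing the data, and the clusters were left out of arterial-gene cells only. No paired analysis was possible because the OSA and control libraries read share only replicate number 2. Having 1 control library limits the precision of the OSA comparison, and 177 venous-gene cells limit that of genes scarce in them.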
